A study of Homo sapiens with 21 samples.

Results

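Microglia-like cells that carry the TREM2 variant R47H were compared with microglia-like cells in which TREM2 was knocked out, by the position of their ATAC-seq peaks. ATAC-seq maps open chromatin with a transposase that cuts and tags accessible DNA. The 6 libraries compared are those titled TREM2-R47H replicates 1 to 3 and TREM2-KO replicates 1 to 3, out of 21 libraries from 7 lines in the series. The cells of both lines were edited with CRISPR/Cas9 in the established human embryonic stem cell line H9, and both edits are homozygous according to the labels. Haematopoietic progenitors made from them were differentiated to microglia for 28 days with IL-34, TGF-beta and M-CSF, with CD200 and CX3CL1 added at the end, and 80000 viable cells per line were sorted. The other lines, named here where their calls are given, are SORL1-KO, SORL1-A528T, CD33 SNP, INPP5D SNP and unedited WT, with 3 libraries each. Edited clones were isolated by sorting. The labels do not say how many clones stand behind a line or whether the replicates were separate differentiations, so the p-values below reflect only how these libraries vary, and that variation may be technical.

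TREM2 is a lipid-sensing receptor of microglia. It has no signalling tail of its own and pairs with the adaptor TYROBP (DAP12), whose phosphorylated motif recruits the kinase SYK and, beyond it, PLCG2 and the VAV exchange factors. The R47H variant weakens ligand binding and is a known risk factor for Alzheimer's disease, while a knockout removes the receptor, and microglia without TREM2 are known for an incomplete switch to the lipid-handling state marked by genes such as APOE and SPP1. The comparison sets a risk variant against loss of the same receptor.

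The peaks of the 6 lists were merged, where they shared at least 1 bp, into 133638 regions on chromosomes 1 to 22 and X with a median width of 698 bp. A library calls a region if any of its peaks lies in it. The deposited lists hold positions and no heights, so every value below counts calls. All 6 libraries called 39284 regions (29.4%), and 37193 (27.8%) were called by 1 library. No source used here names the genome build. Coordinates are those of the lists, counted from 1, and genes come from RefSeq (GRCh38.p14). Of 22131 RefSeq windows from 250 bases before to 50 after a gene's start, 52.8% coincided with a region that all 6 libraries called, against 3.57% and 3.65% when the windows were moved by 10 kb either way.

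A gene start that one line lacked in 3 of 3 libraries is the clearest kind of difference that such lists can show. The start of CRYZ, a quinone oxidoreductase, lay under a region (chr1:74732367-74734355) called in 3 of 3 TREM2-R47H and 0 of 3 TREM2-KO libraries. The start of IRAK4, the kinase that passes on Toll-like receptor and IL-1 receptor signals, lay under a region (chr12:43757989-43759838), also at an end of PUS7L, called in 0 of 3 TREM2-R47H and 3 of 3 TREM2-KO libraries. All 15 other libraries of the series called both regions, so TREM2-KO stood alone in lacking a call at CRYZ and TREM2-R47H in lacking one at IRAK4. The start windows of these genes are shown here with the strand of the gene. Beside them stand BEX5 and NKG7, called in TREM2-R47H and not in TREM2-KO, PCDHA2, called in TREM2-KO and not in TREM2-R47H, and TREM2 itself, called in all 6. The windows are chr1:74733001-74733300 (CRYZ, minus strand), chr12:43758701-43759000 (IRAK4, plus), chrX:102155928-102156227 (BEX5, minus), chr19:51372605-51372904 (NKG7, minus), chr5:140794602-140794901 (PCDHA2, plus) and chr6:41163067-41163366 (TREM2, minus). Capitals mark matches to 6 motifs searched on both strands, and each sequence is from RefSeq (GRCh38.p14).
CRYZ: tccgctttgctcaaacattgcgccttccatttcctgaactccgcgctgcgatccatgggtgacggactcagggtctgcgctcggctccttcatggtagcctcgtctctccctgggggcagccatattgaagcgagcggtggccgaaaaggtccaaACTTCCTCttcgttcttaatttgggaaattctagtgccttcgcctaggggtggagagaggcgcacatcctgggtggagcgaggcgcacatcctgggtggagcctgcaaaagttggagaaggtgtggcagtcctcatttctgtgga
IRAK4: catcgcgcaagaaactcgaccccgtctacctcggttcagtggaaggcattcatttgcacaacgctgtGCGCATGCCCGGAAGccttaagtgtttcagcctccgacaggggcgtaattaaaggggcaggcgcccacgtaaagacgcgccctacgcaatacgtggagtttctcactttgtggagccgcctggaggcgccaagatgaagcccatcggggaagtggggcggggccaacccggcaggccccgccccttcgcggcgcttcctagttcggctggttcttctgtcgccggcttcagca
BEX5: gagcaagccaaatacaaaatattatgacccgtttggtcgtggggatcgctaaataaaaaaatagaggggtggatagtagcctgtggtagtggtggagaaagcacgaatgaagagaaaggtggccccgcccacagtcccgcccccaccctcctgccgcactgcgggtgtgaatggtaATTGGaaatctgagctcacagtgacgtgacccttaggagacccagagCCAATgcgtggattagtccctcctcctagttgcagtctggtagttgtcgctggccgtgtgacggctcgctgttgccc
NKG7: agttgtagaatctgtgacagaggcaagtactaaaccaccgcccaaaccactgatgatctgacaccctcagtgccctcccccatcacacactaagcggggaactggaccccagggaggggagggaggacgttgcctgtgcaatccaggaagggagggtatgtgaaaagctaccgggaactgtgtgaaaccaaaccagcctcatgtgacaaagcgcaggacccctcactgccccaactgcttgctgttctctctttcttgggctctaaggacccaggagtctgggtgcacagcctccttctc
PCDHA2: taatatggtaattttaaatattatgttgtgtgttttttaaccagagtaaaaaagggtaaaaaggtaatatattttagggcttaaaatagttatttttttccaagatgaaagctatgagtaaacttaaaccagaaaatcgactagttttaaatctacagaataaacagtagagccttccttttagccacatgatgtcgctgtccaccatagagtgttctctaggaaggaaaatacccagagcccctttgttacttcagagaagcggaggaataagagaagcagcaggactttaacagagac
TREM2: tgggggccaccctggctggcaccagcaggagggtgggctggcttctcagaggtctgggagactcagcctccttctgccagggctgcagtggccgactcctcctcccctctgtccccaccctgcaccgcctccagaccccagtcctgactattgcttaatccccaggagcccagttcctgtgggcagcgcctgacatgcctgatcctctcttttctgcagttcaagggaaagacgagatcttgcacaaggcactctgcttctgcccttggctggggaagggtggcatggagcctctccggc

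The motifs were CCGGAAG (ETS factors), held by 12.8% of all 22131 start windows, GCGCATGC (part of the NRF1 site) by 3.74%, CACGTG (E-box) by 8.34%, TGANTCA (AP-1) by 6.15%, CCAAT by 34.6% and GAGGAAGT (PU.1) by 2.63%. In the IRAK4 window the NRF1 match and the ETS motif lie next to each other without overlap. The CRYZ window held a PU.1 match, on the opposite strand, and the BEX5 window a pair of CCAAT matches. No match was found in the NKG7, PCDHA2 and TREM2 windows. A match describes the letters of the window and does not show a bound site. The GC content was 57% for CRYZ and 61.7% for IRAK4, with a median of 62.3% over all start windows.

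The libraries differed in depth in the same way in both lines. TREM2-R47H 1 to 3 had 67.4 M, 16.9 M and 50.3 M tags (M, 1000000), and TREM2-KO 1 to 3 had 60.6 M, 15.8 M and 49.0 M. The fragment length written in the file headers was 136 bp for replicate 2 of both lines and 74 bp for the other libraries. The share of tags in peaks was 47.03%, 66.3% and 66.5% in TREM2-R47H 1 to 3, and 45.7%, 68.0% and 71.6% in TREM2-KO 1 to 3, so replicate 1 was low in both lines.

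**Figure D1:**
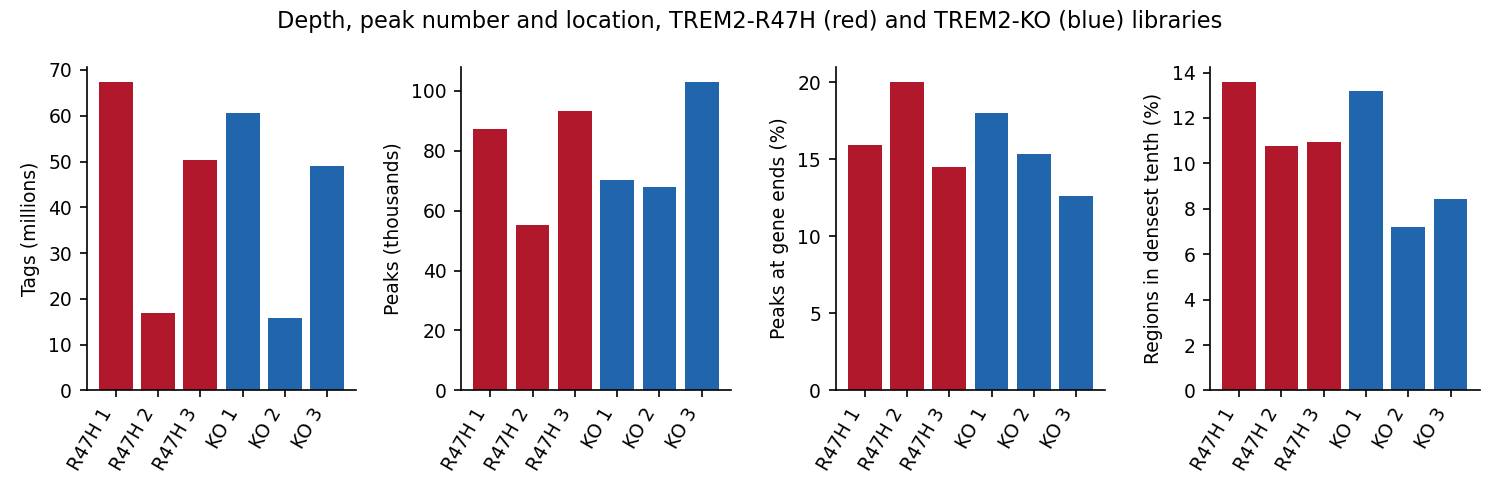
Bars give, for each of the 6 libraries (TREM2-R47H in red, TREM2-KO in blue), the tags (in M), the peaks used, the percent of peaks within 1 kb of a gene end and the percent of called regions in the most gene-dense class. Tags follow the replicate number in both lines, with 16.9 M and 15.8 M in replicate 2, and the densest class takes 13.6% and 13.2% of the regions in replicate 1 but 7.22% and 8.44% in TREM2-KO 2 and 3.

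The number of peaks did not separate the lines. TREM2-R47H 1 to 3 held 87270, 55061 and 93066 peaks, and TREM2-KO 1 to 3 held 70008, 67826 and 102850. The values overlap, and TREM2-R47H was above TREM2-KO by 17262 peaks in replicate 1 and below it in replicates 2 and 3 (differences of -12765 and -9784). The means were 78466 ± 20475 in TREM2-R47H and 80228 ± 19622 in TREM2-KO (SD, n = 3 each), with an exact two-sided permutation p of 1, where the smallest p that 3 against 3 libraries allow is 0.1. Peaks covered 85.1, 44.3 and 81.3 Mb in TREM2-R47H and 63.5, 50.7 and 83.2 Mb in TREM2-KO (exact permutation p = 0.9). TREM2-KO 3 called 14891 regions that no other of the 6 libraries called, against 721 to 7309 in the TREM2-R47H libraries and 2395 and 5895 in TREM2-KO 1 and 2.

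Peak sets were no more alike within a line than between the lines. The Jaccard index, the base pairs shared by 2 libraries over those covered by either, was 0.520 ± 0.068 over the 6 pairs of the same line (SD). It was 0.580 ± 0.050 over the 3 pairs of the other line with the same replicate number and 0.503 ± 0.065 over the 6 pairs of the other line with another number. The pairs share libraries and are not independent. The mean within lines minus the mean between lines was -0.00795 (exact permutation of the 20 assignments, two-sided, p = 0.7). The highest index was 0.648, between TREM2-R47H 1 and 3, and the lowest was 0.416, between TREM2-R47H 1 and TREM2-KO 2.

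The peaks of TREM2-KO 2 and 3 lay in gene-poorer chromatin than those of the other 4 libraries. Regions were put into 10 classes by the number of protein-coding genes centred within 500 kb, and the densest class, with 20 to 76 genes, took 13.6%, 10.7% and 10.9% of the called regions in TREM2-R47H 1 to 3 and 13.2%, 7.22% and 8.44% in TREM2-KO 1 to 3. The class with no gene took 3.74%, 4.70% and 4.37% in TREM2-R47H 1 to 3 and 3.85%, 8.23% and 6.76% in TREM2-KO 1 to 3. In both classes TREM2-KO 1 lies beside TREM2-R47H 1, within 0.4 percentage points, while TREM2-KO 2 and 3 stand outside the range of the 3 TREM2-R47H libraries. The densest class averaged 11.8% ± 1.59 in TREM2-R47H and 9.62% ± 3.16 in TREM2-KO (SD, n = 3 each, exact permutation without pairing, p = 0.3). Within replicate numbers 1 to 3, TREM2-R47H was above TREM2-KO by 0.390, 3.53 and 2.50 percentage points in that class. In the class with no gene the differences were -0.114, -3.53 and -2.39, so all 3 pairs had the same sign in each class. Peaks at gene ends (within 1 kb of a start or end) made up 15.9%, 20.01% and 14.5% in TREM2-R47H and 18.0%, 15.3% and 12.6% in TREM2-KO (exact permutation p = 0.6). Peaks outside genes made up 41.9%, 40.7% and 42.8% in TREM2-R47H and 40.6%, 45.9% and 45.6% in TREM2-KO (exact permutation p = 0.4). TREM2-KO 2 and 3 are thus above the 3 TREM2-R47H libraries and TREM2-KO 1 below them.

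**Figure D2:**
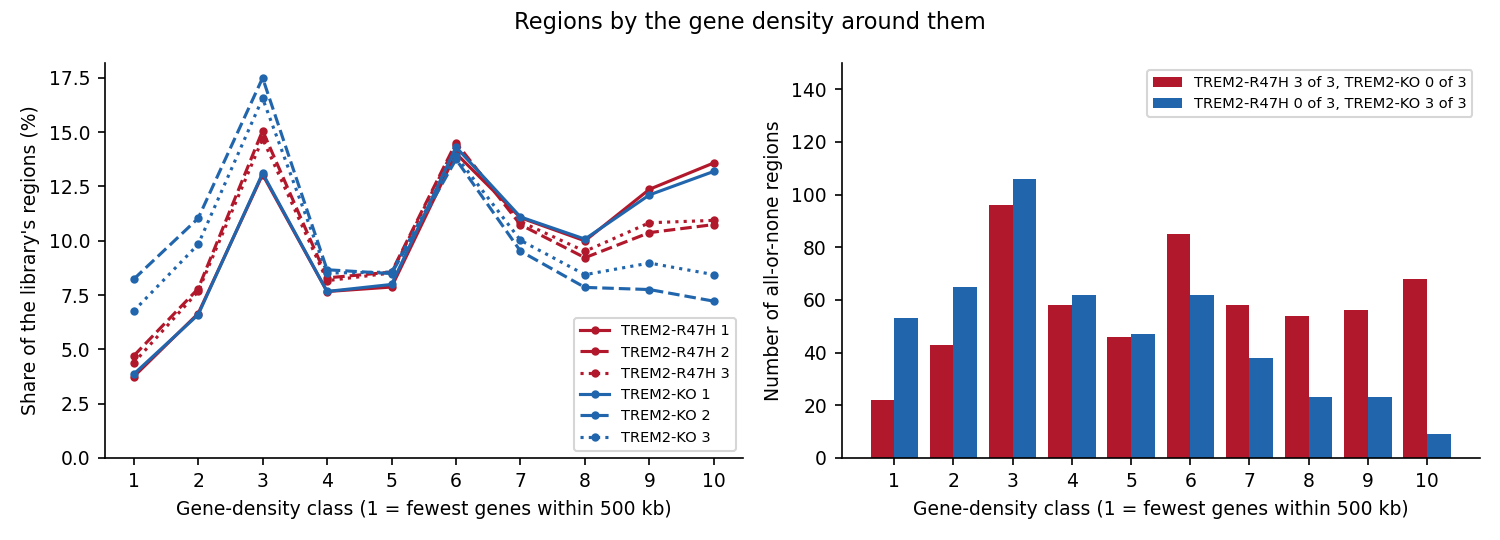
Left, the percent of each library's called regions in 10 classes of gene density (TREM2-R47H red, TREM2-KO blue, line style by replicate). Right, the number of all-or-none regions per class. In the densest class TREM2-KO 2 and 3 lie at 7.22% and 8.44%, below the other 4 libraries. That class holds 68 of the 586 regions called in TREM2-R47H only, 9 of the 488 called in TREM2-KO only and 13185 of all 133638 regions.

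The same tilt was seen by chromosome. To set libraries of unlike depth side by side, the depth-adjusted call of a region is its call (1 or 0) minus what that library called on average among regions with equally many of the 6 libraries calling them. Adjusted calls sum to 0 over the 6 libraries, so the mean of TREM2-R47H is the mean of TREM2-KO with the sign turned, and a difference does not say which line moved. On chromosome 19 the mean was 0.202, -0.00294 and -0.000902 in TREM2-R47H 1 to 3 and 0.120, -0.155 and -0.164 in TREM2-KO 1 to 3. The groups overlap, but TREM2-R47H was above TREM2-KO in each replicate number. Without the replicate number in the fit, 0 of 23 chromosomes passed in either direction (0% each, limma, adjusted p by Benjamini-Hochberg below 0.05, and 0 at an unadjusted p below 0.05). With it as a block, 7 chromosomes were higher in TREM2-R47H (30.4%: 14, 15, 16, 17, 19, 20 and 22) and 4 lower (17.4%: 3, 4, 5 and 13). The difference was 0.140 (SE 0.0215) for chromosome 17 and -0.0859 (SE 0.0148) for chromosome 4 in that fit. When the expectation was also matched on gene density, 7 were higher (30.4%) and 3 lower (13%). Chromosome 16 no longer passed (adjusted p = 0.0844), chromosome 18 did (0.0402), and 13 left the lower side (0.385). The difference of chromosome 19 was then 0.0212 (SE 0.00399, adjusted p = 0.0402).

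All-or-none regions, called in 3 of 3 libraries of one line and 0 of 3 of the other, were few. There were 586 (0.438%) called in TREM2-R47H only and 488 (0.365%) called in TREM2-KO only. They give no test per region, and most stood low in the file order, with a median percentile of 29.5 and 31.0 (100 being the first peak of a list). With each list shortened to its first 55061 peaks the counts became 926 and 759, and 154 of the 586 and 90 of the 488 stayed all-or-none. Gene ends held 39 (6.66%) of the regions called in TREM2-R47H only and 13 (2.66%) of those called in TREM2-KO only, against 5.72% of the 12990 regions called in any 3 of the 6 libraries. The densest of the 10 gene-density classes held 68 of the 586 TREM2-R47H-only and 9 of the 488 TREM2-KO-only regions, and the class with no gene held 22 and 53. Of all 133638 regions, 13185 lay in the densest class and 9687 in the class with no gene. The share of TREM2-KO 2 and 3 in dense classes moves with these counts, and its part in them was not tested.

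Gene ends called in TREM2-R47H only were led, in file order, by CRYZ and by PDPN, which encodes the membrane glycoprotein podoplanin (chr1:13583555-13585804), called in 10 of the 15 libraries of the other lines. Next came CKB, the brain creatine kinase (chr14:103516261-103519139, 7 of 15), BEX5 (chrX:102155332-102156398, 12 of 15) and IFNGR1, the ligand-binding chain of the interferon gamma receptor (chr6:137195170-137196850, 4 of 15). Among those that followed were NOS3, the endothelial nitric oxide synthase (chr7:151012704-151014337, 7 of 15), and NKG7, a protein of cytotoxic granules (chr19:51372383-51373443, 4 of 15). Further down were STAT5A, a transcription factor of cytokine signalling (chr17:42311536-42312769, 6 of 15), and CD5, a lymphocyte receptor (chr11:61094877-61095529, 6 of 15). These regions were thus called in some libraries of the other lines, and CRYZ is the exception with all 15.

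Gene ends called in TREM2-KO only were led by the region of PUS7L and IRAK4. It was followed by TBX20, a transcription factor known from heart development (chr7:35203329-35204161, 13 of 15), and PCDHA2, a clustered protocadherin (chr5:140794500-140795761, 1 of 15). Below them stood KLKB1, plasma prekallikrein (chr4:186258209-186258869, 11 of 15), GRB10, an adaptor of growth factor receptors (chr7:50792932-50793989, 6 of 15), and COL21A1, a collagen (chr6:56393893-56394747, 12 of 15). Of 15811 genes with a start window, 18 (0.114%) had their start called in 3 of 3 TREM2-R47H and 0 of 3 TREM2-KO libraries, and 2 (0.0126%), IRAK4 and PCDHA2, the other way round. The 18 also include, named after their values were seen, the chemokine CCL24 and the cytokine subunit IL23A.

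**Figure D3:**
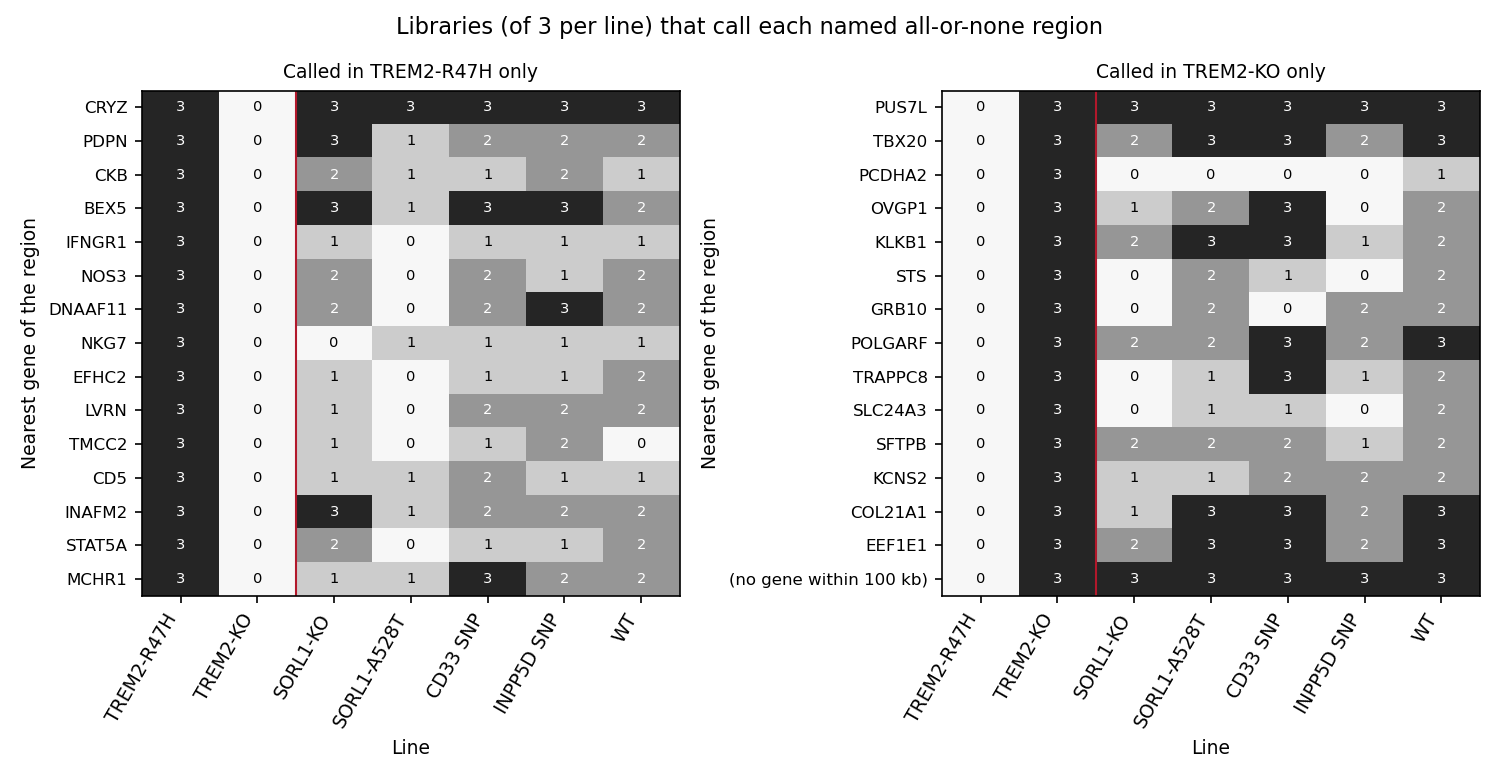
Each cell gives how many of a line's 3 libraries call a named region (white 0, black 3). The left panel has the first 15 regions called in TREM2-R47H only and the right panel the first 15 called in TREM2-KO only, gene ends first in file order. The CRYZ and PUS7L rows are at 3 in all 5 other lines, while PCDHA2 is at 0 in 4 of them.

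The other lines differed in which of the sets they called more. Over all 133638 regions WT made 55.0% of its possible calls, CD33 SNP 58.7%, INPP5D SNP 51.7%, SORL1-KO 53.2% and SORL1-A528T 43.8%. WT made 41.5% of its possible calls at the TREM2-R47H-only regions and 62.7% at the TREM2-KO-only regions. All 3 WT libraries called 17 (2.90%) of the 586 TREM2-R47H-only regions and 133 (27.3%) of the 488 TREM2-KO-only regions, and no WT library called 99 and 32 of them. Over all regions WT 1 to 3 called 66.3%, 33.4% and 65.3%, so WT 2 limits how many regions all 3 can share. The same counts over all regions are not given here, so these describe the sets only. CD33 SNP made 50.9% and 63.7%, INPP5D SNP 46.2% and 44.5%, and SORL1-KO 52.0% and 35.2%. SORL1-KO thus called more of the TREM2-R47H-only than of the TREM2-KO-only regions, the former near its share over all regions. That share is not a matched baseline for any line. Each region of the sets was called in 3 of the 6 libraries, while all regions include those called in 1 or in all 6. The libraries titled SORL1-A528T made 12.7% and 50.5% of their possible calls, the widest gap of the 5. Their genotype label names TREM2-KO, and they were grouped by title here. Both sets were chosen by the calls of the 6 libraries, and the other lines' libraries were not used in choosing them. In 12 TREM2-R47H-only and 5 TREM2-KO-only regions none of the 15 other libraries had a call, and 1 and 8 were called in all 15. For these counts, too, no share over all regions is given.

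**Figure D4:**
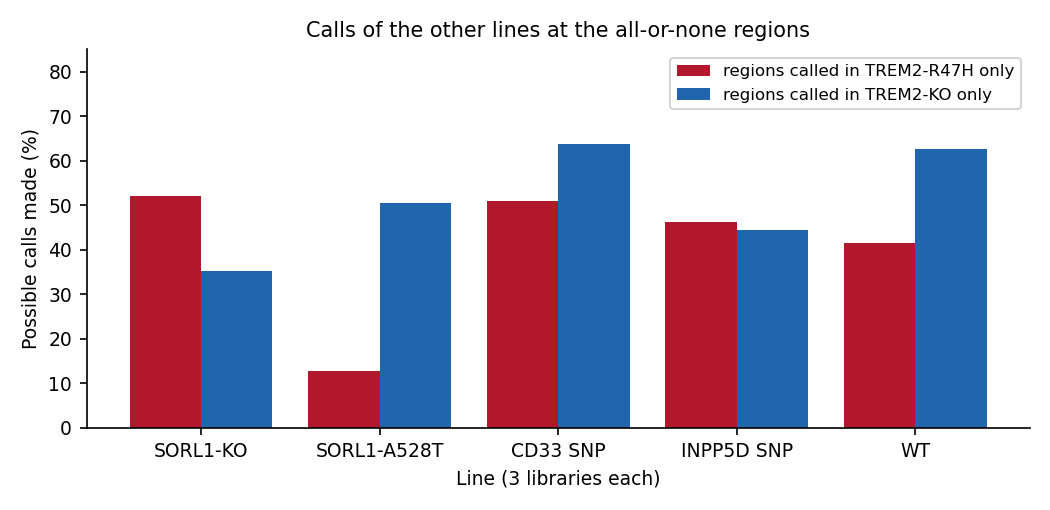
Bars give the percent of possible calls (regions times 3 libraries) that each other line made at the 586 regions called in TREM2-R47H only (red) and the 488 called in TREM2-KO only (blue). WT lies at 41.5% and 62.7% and SORL1-A528T at 12.7% and 50.5%, while SORL1-KO lies the other way at 52.0% and 35.2%. Over all regions WT made 55.0%, SORL1-A528T 43.8% and SORL1-KO 53.2%.

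The TREM2 gene itself was open in both lines. Its start region (chr6:41161604-41163544) and a region beyond its other end (chr6:41157002-41157928) were called in 3 of 3 TREM2-R47H and 3 of 3 TREM2-KO libraries, as was the TYROBP start (chr19:35907515-35910189). The lists therefore do not show the edit, and a call at a gene start says nothing on the protein. A region upstream of TREM2 (chr6:41166995-41167767) was called in TREM2-R47H 1 and 3 and in no TREM2-KO library, with 1 of 3 in WT. Within 10 kb of SYK, 10 regions took 73.3% of possible calls in TREM2-R47H and 80.0% in TREM2-KO, beside 57.6% and 58.7% over all 133638 regions. Among them an intronic region (chr9:90838960-90839761) had no call in TREM2-R47H, 3 of 3 in TREM2-KO and 13 in the 15 others. A region inside VAV3 (chr1:107728081-107728617) had the same calls, 0 of 3, 3 of 3 and 13 of 15. These are the 2 regions called in TREM2-KO only among 394 of TREM2 signalling genes (0.508%), a share near the 0.365% of all regions, and 0 of the 394 were called in TREM2-R47H only. PLCG2, with 27 regions, took 81.5% in TREM2-R47H and 82.7% in TREM2-KO.

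Around APOE, the lipid carrier that the series title names, TREM2-R47H called more regions than TREM2-KO. The start of APOE (chr19:44905297-44906932) was called in TREM2-R47H 1 and 3 and in TREM2-KO 1. The region between APOE and APOC1 (chr19:44910768-44911690) had calls from TREM2-R47H 1, 2 and 3 and from no TREM2-KO library, and its pattern was the same in lists shortened to equal length. A region 5' of APOE (chr19:44903424-44904137) and one at the APOC1 side (chr19:44912551-44913523) were called in TREM2-R47H 1 and 3 and in no TREM2-KO library. The APOC1 start (chr19:44914156-44915751) was called in all 6. APOC1 encodes a further apolipoprotein, and over the 6 regions within 10 kb of it the lines made 88.9% and 38.9% of possible calls (16 and 7 of 18), with 50.0% in WT. Over all 2894 regions of chromosome 19 the shares were 70.5% in TREM2-R47H, 57.6% in TREM2-KO and 60.2% in WT, so the chromosome as a whole moves the same way, and its part in the values at APOE and APOC1 was not tested. Outside that cluster, in the class of lipid transport, a region near ABCG1, a cholesterol exporter (chr21:42193087-42193676), was also called in TREM2-R47H only. It stood low in the file order (median percentile 14.2), did not stay all-or-none in lists of equal length and was called in 9 of the 15 others. Of 218 regions of the APOE cluster and lipid transport list, 2 (0.917%) were called in TREM2-R47H only and 0 in TREM2-KO only, against 0.438% and 0.365% of all regions. APOE, APOC1, TREM2 and TYROBP had fewer than 5 regions assigned to them and were not in the test per gene.

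Gene by gene, no gene passed. The depth-adjusted call was averaged over the regions nearest to each gene, and of 7291 genes with at least 5 regions 0 were higher and 0 lower in TREM2-R47H (0% each, limma, adjusted p below 0.05). At an unadjusted p below 0.05 there were 472 higher (6.47%) and 216 lower (2.96%). With the replicate number as a block 0 passed as well (0% each), while an unadjusted p below 0.05 was reached by 1050 on the higher side (14.4%) and 530 on the lower (7.27%), and the smallest adjusted p was 0.0731. Without TREM2-KO 1, 279 of 7151 genes passed as higher (3.9%) and 79 as lower (1.1%), so this library decides the count. With the expectation matched on gene density, 0 passed with or without that library, and an unadjusted p below 0.05 was reached by 379 genes on the higher side and 378 on the lower. In 653 genes (8.96%) the 3 TREM2-R47H values were all above, and in 399 (5.47%) all below, the TREM2-KO values.

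The genes with the smallest p are examples that did not pass. USF3, a transcription factor with 6 regions, had 0.262, 0.544 and 0.143 in TREM2-R47H 1 to 3 and -0.350, -0.254 and -0.346 in TREM2-KO 1 to 3, a difference of 0.633 (SE 0.111, adjusted p = 0.490, limma). AGPAT4, an acyltransferase of phospholipid synthesis with 16 regions, had 0.195, 0.273 and 0.175 in TREM2-R47H and -0.184, -0.227 and -0.232 in TREM2-KO. Neither pair of groups overlaps, but both genes were among those with the smallest p, so this adds no evidence. The other differences on that side were 0.523 for NOS3, 0.466 for the protease PRSS23 and 0.411 for MYEOV. On the other side CRYBG3 had -0.230, -0.198 and -0.141 in TREM2-R47H and 0.150, 0.234 and 0.185 in TREM2-KO. The remaining differences were -0.507 for RBL2, a retinoblastoma-like repressor of the cell cycle, -0.429 for SRD5A2, -0.402 for AJAP1 and -0.387 for ANGPT2, a ligand of the TEK receptor.

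In several lists of microglial genes more members had a positive difference, higher in TREM2-R47H, than among all genes, and 0 members of any list passed. This was not particular to microglial lists, as endothelial genes had 9 of 9 positive (median 0.153). The lists were chosen with earlier results of these data known, so their counts are a description, beside 57.2% of all 7291 genes with a positive difference and a median of 0.0265. Among disease-associated microglia genes, 19 of 21 tested had a positive difference (median 0.146). CTSD, a lysosomal protease, had 0.248, 0.00360 and 0.215 in TREM2-R47H and -0.0123, -0.190 and -0.264 in TREM2-KO. FTH1, the ferritin heavy chain, had 0.205, 0.0532 and 0.195 in TREM2-R47H and -0.0212, -0.196 and -0.236 in TREM2-KO, while the differences of ITGAX, an integrin of this state, and SPP1, osteopontin, were 0.248 and 0.227. In CTSD and FTH1 the groups do not overlap, and the value of TREM2-KO 1 lies closer to TREM2-R47H than those of TREM2-KO 2 and 3. Both genes were named for their small p within the list, so the lack of overlap adds no evidence. Over all 7291 genes, 653 (8.96%) had all TREM2-R47H values above the TREM2-KO values. With the block and the expectation matched on gene density, the difference of CTSD was 0.125, against 0.311 without, and that of FTH1 0.141, against 0.302.

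For homeostatic microglia genes 18 of 23 were positive (median 0.120). They include the lineage factors RUNX1 (0.293, SE 0.109) and SPI1 (0.272, SE 0.105), while PROS1, a bridging ligand for engulfment, was at -0.199 (SE 0.0898). For the APOE cluster and lipid transport 14 of 16 were positive (median 0.105), led by the apolipoprotein CLU with 0.289 (SE 0.106), and the fatty acid receptor CD36 was at -0.167 (SE 0.0902). AP-1 and immediate early factors had 15 of 18 positive (median 0.111), with ATF3 at 0.329 (SE 0.0841). TREM2 signalling genes had 15 of 22 positive (median 0.0534), with ADAM10, a sheddase that cleaves TREM2, at 0.264 (SE 0.102) and VAV1 at 0.308 (SE 0.130). With the block and the expectation matched on gene density, the medians were 0.105 for disease-associated genes, 0.0890 for homeostatic genes, 0.0715 for lipid transport, 0.121 for AP-1 factors and 0.00458 for TREM2 signalling, with 0.00365 over all genes. The median of TREM2 signalling was thus close to that of all genes in that fit. SPI1 had 0.141 and VAV1 0.131 there, while RUNX1 had 0.322, ATF3 0.227, CLU 0.243 and ADAM10 0.238.

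The remaining lists lay on both sides of the 57.2% of all genes. Lysosome and phagocytosis genes had 19 of 29 positive (median 0.0482, and 0.00762 with the block and gene density), interferon response genes 4 of 7 (median 0.000122) and perivascular macrophage genes 3 of 5. Alzheimer risk loci had 28 of 36 positive (median 0.0410), microglial survival and TGF-beta signals 20 of 22 (median 0.105) and complement 9 of 11 (median 0.0774). Of lists for other cells, endothelial genes had 9 of 9 positive (median 0.153, and 0.135 with the block and gene density). Haematopoietic progenitor genes had 6 of 11 positive, monocyte and neutrophil 3 of 6, mesenchymal and matrix 8 of 13 and neural 4 of 9. Lymphoid genes had 4 of 5, pluripotent stem cell 3 of 4, erythroid and megakaryocyte 2 of 3 and mast cell and basophil 1 of 2. Housekeeping genes had 5 of 8.

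Of 27 inflammation and NF-kB genes tested, 19 were positive (median 0.0544, and 0.0167 with the block and gene density). CCL22, a chemokine, had 0.111, 0.320 and 0.198 in TREM2-R47H and -0.0367, -0.276 and -0.317 in TREM2-KO. IRAK3, which dampens Toll-like receptor signals, had -0.236, -0.0479 and -0.182 in TREM2-R47H and 0.163, 0.194 and 0.110 in TREM2-KO. Regions inside IRAK3 (chr12:66195237-66195905 and chr12:66196571-66197324) were called in 0 of 3 TREM2-R47H and 3 of 3 TREM2-KO libraries, and in 15 and 13 of the 15 others. The values of CCL22 and of IRAK3 do not overlap between the lines. Both genes were named for their small p within the list, so this adds no evidence. Over all 7291 genes, 653 (8.96%) had all TREM2-R47H values above, and 399 (5.47%) all below, the TREM2-KO values. The IRAK3 regions given here are also part of its mean, so they are not separate support. Of the 369 regions of this list, 3 were called in TREM2-R47H only, near CCL22, CXCL8 and NFKBIZ, and 3 in TREM2-KO only, those of IRAK3 and 1 near CCL2 (0.813% each, against 0.438% and 0.365% of all regions). The edited genes of the other lines did not pass, with differences of 0.201 (SE 0.0942) for CD33, 0.0581 (SE 0.0929) for SORL1 and -0.0252 (SE 0.0923) for INPP5D, and SYK had 0.0528 (SE 0.0948).

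Most starts of homeostatic microglia genes were called in both lines. Of 22 starts, 20, 20 and 20 were called in TREM2-R47H 1 to 3 and 20, 19 and 20 in TREM2-KO 1 to 3, with 19 (86.4%) in all 6. Housekeeping genes had 23 of 25 starts called in all 6 libraries, and all genes 8935 of 15811 (56.5%). Few starts were called in all 6 among pluripotent stem cell genes (1 of 11), mast cell and basophil genes (2 of 8), lymphoid genes (2 of 9), endothelial genes (0 of 6) and monocyte and neutrophil genes (1 of 12). By library, monocyte and neutrophil starts numbered 6, 2 and 6 of 12 in TREM2-R47H 1 to 3 and 6, 2 and 4 in TREM2-KO 1 to 3. Perivascular macrophage genes had 2 of 6 starts called in all 6. By library these numbered 5, 3 and 6 in TREM2-R47H 1 to 3 and 5, 2 and 5 in TREM2-KO 1 to 3. Haematopoietic progenitor genes, which mark the cells these were made from, had 6 of 13 starts called in all 6 (46.2%). Endothelial starts were called 2, 1 and 2 times in TREM2-R47H 1 to 3 and 0, 1 and 2 times in TREM2-KO 1 to 3, while 9 of 9 endothelial genes tested had a positive difference (median 0.153). In bulk libraries a region called less often can mean fewer cells with it or less open chromatin per cell, which cannot be told apart.

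On chromosome X the windows around BCOR, a corepressor of BCL6, held more calls in TREM2-R47H. This stretch was known from earlier results of these data to stand out in TREM2-R47H, so its values are not independent evidence. Of 2816 windows of 1 Mb with at least 10 regions, 0 were higher and 0 lower without the block (0% each, limma, adjusted p below 0.05), and an unadjusted p below 0.05 was reached by 40 on the higher side (1.42%) and 88 on the lower (3.12%). With the replicate number as a block, 316 windows were higher in TREM2-R47H (11.2%) and 470 lower (16.7%), and without TREM2-KO 1 and without the block 276 (9.82%) and 371 (13.2%) of 2812 passed. With gene density in the expectation beside the block, 8 were higher (0.284%) and 2 lower (0.071%). The 2 adjoining windows chrX:39000001-40000000 and chrX:40000001-41000000 were among those 8. In the first of them, which holds 42 regions and no gene centre, the mean adjusted call was 0.193, 0.112 and 0.214 in TREM2-R47H and -0.143, -0.152 and -0.224 in TREM2-KO. In the second, with BCOR, ATP6AP2 and MED14 and 71 regions, it was 0.169, 0.158 and 0.151 in TREM2-R47H and -0.0516, -0.221 and -0.205 in TREM2-KO. The groups do not overlap in either window, but both were among the windows with the smallest p, so this adds no evidence. The differences were 0.346 (SE 0.0620) and 0.318 (SE 0.0670), with adjusted p = 0.555 without the block, 0.00935 with it and 0.0166 and 0.0231 with gene density as well.

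The next window (chrX:41000001-42000000, with USP9X, DDX3X and CASK) had a difference of 0.198 (SE 0.0569, blocked adjusted p = 0.0135, and 0.0637 with gene density). The windows on either side of these 3 had 0.00400 (SE 0.0596) and -0.139 (SE 0.0904). Over the 181 regions of the 3 windows, TREM2-R47H 1 to 3 made 80.7%, 48.1% and 84.0% of possible calls and TREM2-KO 1 to 3 made 40.9%, 30.9% and 59.1%. WT made 59.7%, 25.4% and 56.4%, and over 3 libraries the other lines, WT included, made 33.0% to 54.0%, with 70.9% in TREM2-R47H and 43.6% in TREM2-KO. The regions come from the TREM2-R47H and TREM2-KO lists alone, so regions called only in other lines are not in the set. Over all 133638 regions TREM2-R47H made 57.6%, TREM2-KO 58.7% and the other lines 43.8% to 58.7% of possible calls. Of the 181 regions, 8 (4.42%) were called in TREM2-R47H only and 0 in TREM2-KO only, against 0.438% and 0.365% of all regions. Of the 8, chosen here after their values were seen, 1 (chrX:40145998-40147036) holds an internal BCOR start window and was called in 2 of the 15 other libraries, and another near BCOR (chrX:40008695-40009723) was called in none of them. The main BCOR start (chrX:40173848-40177596) was called in all 6.

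**Figure D5:**
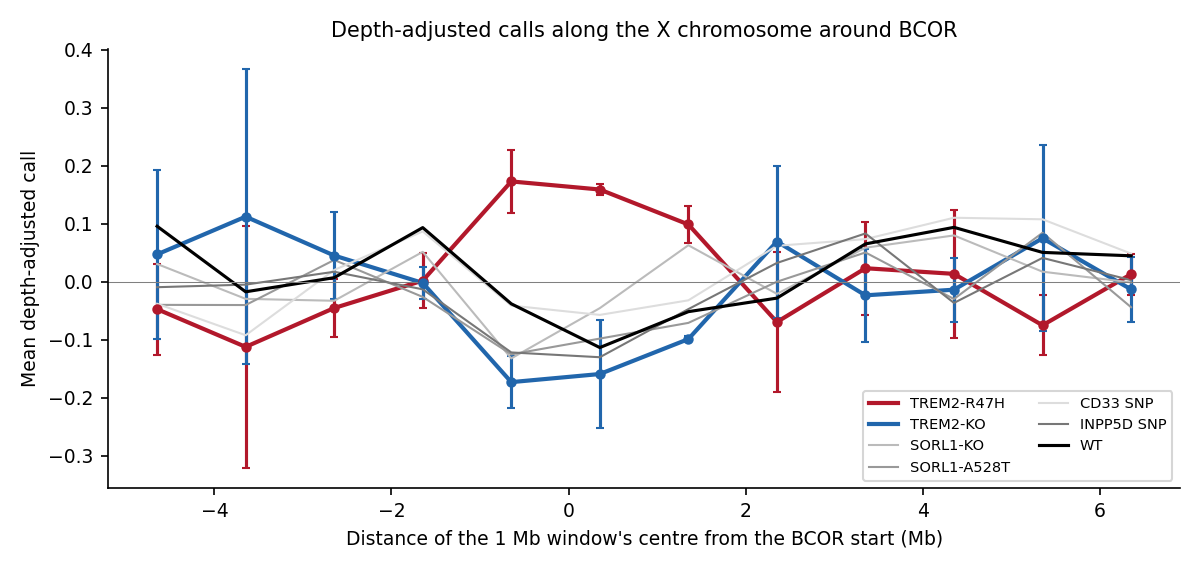
Mean depth-adjusted call per 1 Mb window against the distance of the window's centre from an internal BCOR start window, for 7 lines (TREM2-R47H red and TREM2-KO blue with the SD over 3 libraries, WT black, other lines grey, all over the same regions). TREM2-R47H stands at 0.173 and 0.159 in the windows around BCOR, where TREM2-KO stands at -0.173 and -0.159, and at 0.00200 and -0.00200 in the window before them.

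Outside X, a window on chromosome 7 (chr7:29000001-30000000, with CPVL, a myeloid carboxypeptidase, and SCRN1) had 0.260, 0.0768 and 0.0838 in TREM2-R47H and -0.0695, -0.156 and -0.195 in TREM2-KO. Its difference of 0.281 (SE 0.0740) had an adjusted p of 0.0231 in the fit with the block and gene density. A window on chromosome 3 (chr3:140000001-141000000, with CLSTN2 and SLC25A36) was on the other side, with -0.119, -0.0927 and -0.129 in TREM2-R47H and 0.0726, 0.116 and 0.152 in TREM2-KO. It did not pass in that fit (adjusted p = 0.0637). The groups do not overlap in either window, but both were among the windows with the smallest p, so this adds no evidence. The 2 lower windows that passed in the fit with the block and gene density were chr1:248000001-249000000 (adjusted p = 0.0229) and chrX:145000001-146000000 (0.0477). The chromosome 1 window holds many olfactory receptor genes, and its difference was -0.142 with the block alone and -0.311 in that fit. Further higher windows there were chr21:35000001-36000000 (0.0166), chr22:27000001-28000000 (0.0231), chr17:77000001-78000000 (0.0309) and chr8:49000001-50000000 (0.0477). A window on chromosome 6 that holds CD83, a marker of activated myeloid cells, named after its values were seen, was higher in that fit (0.293, SE 0.0381, adjusted p = 0.0231). Its values overlap between the lines in the fit without the block.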

How the data were processed

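Peak lists of ATAC-seq libraries were used as deposited. Per the file headers, the authors ran HOMER findPeaks on each library alone (histone style, peak size 500, minimum distance 1000, no control named), requiring 4.00-fold over the local 10000 bp with a Poisson p of 1.00e-04. The deposited score column holds 1 for every peak, so no height could be tested. The submitters' processing notes name HOMER 4.10, STAR 2.7, cutadapt 1.18 and DESeq2, without the use made of DESeq2 or any shift for the transposase cut. Tags and fragment lengths are those of the headers.

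Peaks on chromosome Y, chromosome M and contigs (0.0789% of 476457) were left out. Each region was given to the nearest protein-coding gene, if closer than 100 kb (80.9% had one). The 22 lists hold 546 genes, 5 of them unmatched. Depth-adjusted calls were averaged per gene (at least 5 regions), per 1 Mb window (at least 10 regions) and per chromosome and tested with limma 3.58.1 in R 4.3.3, without a block in the fit chosen as primary. Library values were compared by exact permutation. The fits were also run on simulated calls, drawn independently for each region. The simulation held no tilt by gene density and no link between same-numbered libraries apart from depth. It therefore cannot show how the fits behave under those patterns.

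The replicate numbers were used to pair the libraries. Deviations of same-numbered libraries from the line means correlated over windows with 0.857, 0.788 and 0.446 and over genes with 0.576, 0.322 and 0.195 for numbers 1 to 3. Among libraries of unlike number the highest values were those of TREM2-R47H 2 with TREM2-KO 3, 0.411 over windows and 0.389 over genes. Over genes this was above the same-numbered values of numbers 2 and 3, so the pairing was clearest for number 1. Blocked values stand beside the results they change.

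The members and lists were chosen with earlier results of these data known. Named were TREM2, TYROBP, SYK, APOE, APOC1 and the other edited genes, the 5 genes with the smallest p in each direction, up to 4 members per list, up to 15 all-or-none regions per direction (gene ends first, by file order), those of list genes, and windows and chromosomes past the threshold or with the smallest p. Alternatives were lists of equal length, calls only where peaks cover 50% of a region, dropping regions seen in 1 library, all 21 libraries in a single fit, regions merged over 21 lists, at least 10 regions per gene, at least 20 per window, gene-end regions alone, each library left out and the block. The expectation matched on gene density was chosen after seeing the data. Calculations used Python 3.11.15, numpy 2.4.6 and pandas 2.3.3.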

Additional observations from a re-analysis of the deposited data

How the results depend on the processing

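No gene passed in the 6-library fit with or without the replicate block, and 3 were higher when all 21 libraries shared a fit. Leaving out 1 library gave 0 to 279 genes higher and 0 to 79 lower in TREM2-R47H, and 0 to 276 windows higher and 0 to 371 lower, with the top of each range reached without TREM2-KO 1. The replicate block gave 316 windows higher and 470 lower and 7 chromosomes higher and 4 lower. With gene density in the expectation the blocked fit gave 8 windows higher and 2 lower and 7 chromosomes higher and 3 lower, and the fit without TREM2-KO 1 gave 1 window higher. All 21 libraries in a single fit gave 3 windows higher and 1 lower. The cause of these differences was not tested.

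Regions called in TREM2-R47H only numbered 926 and in TREM2-KO only 759 with lists of equal length. Without 1 library they ranged from 656 to 4610 and from 533 to 4603. Without both libraries of replicate 1 they were 1221 and 5211, without replicate 2 they were 4853 and 1424, and without replicate 3 they were 2413 and 1631, where fewer libraries have to meet the condition. The difference in peak number ranged from -9062.5 to 9940 and turned positive without TREM2-R47H 2 (9940) and TREM2-KO 3 (9549). Covered sequence ranged from -3.12 to 17.4 Mb and turned negative without TREM2-R47H 1 (-2.97), TREM2-R47H 3 (-1.10) and TREM2-KO 2 (-3.12). The share at gene ends ranged from -0.125 to 2.81 percentage points, negative without TREM2-R47H 2 (-0.125). With the replicate number as a block its exact permutation p was 0.75. The Jaccard difference was 0.00491 with lists of equal length and ranged from -0.0289 to 0.0186, above 0 without TREM2-R47H 2 (0.00217), TREM2-KO 1 (0.0186) and TREM2-KO 3 (0.00126).

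Of 535 values of 38 genes under the alternatives, 509 kept their direction and side of the threshold, 16 came to pass and 10 changed sign. SYK ranged from -0.0224 to 0.101, INPP5D from -0.0561 to 0.0398 and SORL1 from -0.00533 to 0.124 with 1 library left out. SYK was at -0.0224 without TREM2-R47H 1, -0.0444 with equal lists and -0.0606 with regions called in at least 2 libraries. INPP5D was at 0.0398 without TREM2-KO 1 and 0.0406 with equal lists, and SORL1 at -0.00533 without TREM2-KO 3 and -0.0749 with equal lists. With gene-end regions alone MYEOV was at -0.223, FGR at -0.139 and SPI1 at -0.0411. Replicate 2 of both lines had the fewest tags, which limits what a missing call there shows.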
